A study of Mus musculus with 4 samples.

Results

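The genes described here are 40 interferon-induced genes and interferon regulatory factors (IRFs) in white adipose tissue of mice fed a high fat diet (HFD), set against mice fed a low fat diet (LFD). They were chosen by name, as 4 interferon receptor chains, 8 IRFs with Stat2, 21 targets of type I interferon, 4 members of the Ifitm family and the GTPases Gbp2 and Gbp3. Probes were matched by the gene name in the scanner files, older and newer names included, and 1 gene, Ifi27, stands in the files under the older name Ifi27l1. All 40 were found among the 27617 gene names on the array, through 59 of its 41174 probes, and all 40 had a probe bright enough to be tested, as did 17740 names in all.

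HFD mice were female C57BL/6 mice, an inbred laboratory strain, that received High fat diet 32 (CLEA Japan) for 18 weeks from 8 weeks of age, as a model of diet-induced obesity. LFD mice, of the same strain, sex and age, received the standard chow CE2 (CLEA Japan) for the same time. Each sample was adipose tissue mixed from 3 mice, and 500 ng of its RNA was hybridised to a 1-colour whole mouse genome array, with 2 arrays per diet and all 4 on 1 slide. No fat depot is named in the sources used here, and whether the 2 replicates of a diet were separate pools is not settled. The p-values therefore measure only how far these samples spread, and that spread may be technical. Adiponectin (Adipoq), the secreted protein that marks adipocytes, had log2 signals of 7.38 and 7.47 on the HFD arrays, against 7.68 and 7.80 on the LFD arrays, and was not called (adjusted p = 0.119). All signals below are log2 values relative to the 75th percentile of their array, and differences are HFD minus LFD on that scale. Since different probes bind with different strength, signals are compared between arrays and not between genes. In whole tissue, fewer cells of a type and less RNA per cell cannot be told apart.

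HFD replicate 2 stood apart in detection, with 21314 probes well above background, against 27252 on HFD replicate 1 and 26421 to 27940 on the LFD arrays. Its negative control spots were also the brightest, with a median signal of 119, against 106 on HFD replicate 1 and 72.6 to 96.5 on the LFD arrays. Of the 40 representative probes, 39 were well above background on all 4 arrays, the exception being that of Oas3. Results that depend on that array are given with and without it.

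Type I interferons (the interferon alpha family and interferon beta) bind a receptor made of Ifnar1 and Ifnar2, which activates Stat2. Stat2 joins Irf9 in a complex that binds the interferon-stimulated response element (ISRE) of target genes. Interferon gamma, made by T cells and natural killer (NK) cells, binds a receptor of Ifngr1 and Ifngr2 and acts through another element, the gamma-activated site (GAS). In adipose tissue, macrophages are a known site of Irf5 and Irf8 expression, and lymphocytes are a known source of interferon gamma.

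The 2 elements were looked for in the promoters of the 40 genes, since interferon acts on its target genes through them. The windows are those of RefSeq for build GRCm38.p6, from 250 bases before to 50 after the annotated start, and 35 of the 40 genes had one. No window was at hand for Ifi27, Oas2, Usp18, Mx1 and Mx2. The ISRE core was taken as GAAANNGAAA on either strand and the GAS core as TTCNNNGAA, which reads the same on both strands, and the 2 cores can overlap each other. The sequences below are shown because they carry these cores in genes the results turn on, among them type I targets, both Gbp genes and Irf8, which was higher in HFD. Capitals mark the cores, each line runs 5′ to 3′ on the strand of the gene, and every window lies before the annotated start.
Isg15: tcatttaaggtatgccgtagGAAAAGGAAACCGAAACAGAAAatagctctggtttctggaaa
Ifit1: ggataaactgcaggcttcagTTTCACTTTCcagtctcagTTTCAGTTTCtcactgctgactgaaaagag
Ifit3: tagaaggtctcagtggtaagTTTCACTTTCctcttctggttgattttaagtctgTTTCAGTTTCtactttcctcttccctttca
Rsad2: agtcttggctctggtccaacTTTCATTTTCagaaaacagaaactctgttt
Oas1a: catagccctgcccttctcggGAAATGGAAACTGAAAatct
Oas3: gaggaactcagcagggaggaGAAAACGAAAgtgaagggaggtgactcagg
Gbp2: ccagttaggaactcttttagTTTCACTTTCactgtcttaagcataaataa
Gbp3: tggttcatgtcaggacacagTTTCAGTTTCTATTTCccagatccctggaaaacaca
Irf8: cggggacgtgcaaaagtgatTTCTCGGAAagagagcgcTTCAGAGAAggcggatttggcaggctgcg
Irf1: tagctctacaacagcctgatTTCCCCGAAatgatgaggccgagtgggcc

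Isg15 lies on the minus strand at chr4:156200855-156200916 and carried 3 overlapping ISRE cores, and Ifit1, on the plus strand at chr19:34640765-34640833, carried 2. Ifit3 (plus strand, chr19:34583353-34583436) also held 2, and Rsad2 (minus strand, chr12:26456543-26456592) held 1. Oas1a (minus strand, chr5:120907526-120907565) had 2 overlapping cores and Oas3 (minus strand, chr5:120777705-120777754) had 1. Gbp2 (plus strand, chr3:142620584-142620633) held 1 and Gbp3 (plus strand, chr3:142559979-142560034) held 2, also overlapping. In Irf8 (plus strand, chr8:120736167-120736233) 2 GAS cores were found, and in Irf1 (plus strand, chr11:53769904-53769952) there was 1.

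An ISRE core was present in 15 of the 35 members with a window (42.9%), against 3.99% of 27025 genes. Among the type I targets it was present in 9 of 16 (56.2%). The GAS core was present in 12 of the 35 members (34.3%), against 9.55% of the 27025 genes. Of the 5 members that differed between diets, only Irf8 held either core, and Irf5, Ifngr2, Oasl1 and Ifitm1 had neither in these windows. A match is a description of these letters and not of a bound factor.

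**Figure D1:**
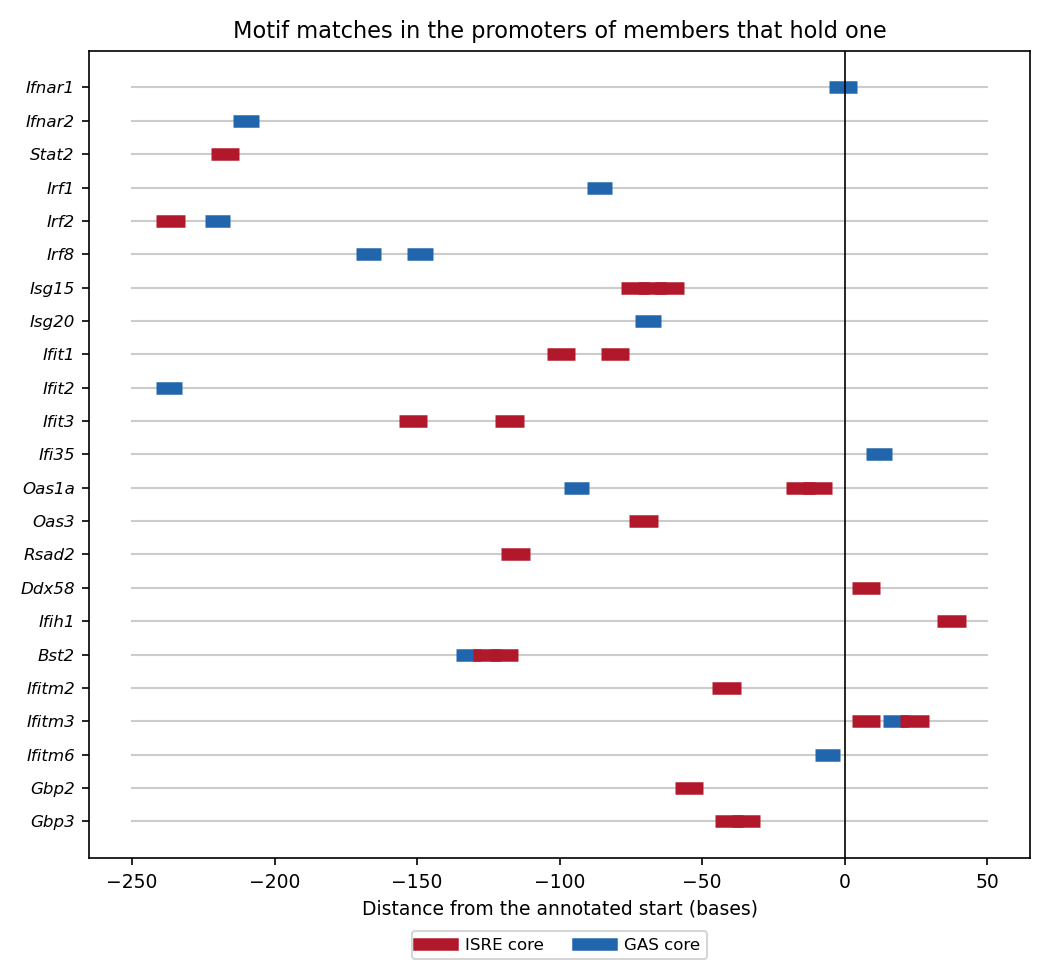
Positions of ISRE cores (red) and GAS cores (blue) relative to the annotated start (x axis, in bases) for the members whose promoter window holds one, with the grey line showing the window from 250 bases before to 50 bases after the start. Most ISRE cores of the type I targets lie before the start, as in Isg15, Ifit1 and Oas3.

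As a group, the 40 genes differed little between diets. Their median log2 difference was 0.03, against 0.02 over all 17740 genes tested, and 33 of 40 differed by less than 1.5-fold (82.5%, against 79.8% of all genes). At an adjusted p under 0.05, 4 members were higher in HFD (Ifngr2, Irf5, Irf8 and Oasl1), which is 10% of them against 5.74% of all genes. One member, Ifitm1, was lower in HFD, 2.5% of the members against 5.61% of all genes. Together the called members made up 12.5%, against 11.4% of all genes, so the share of members called was near that of any gene on the array. Both HFD arrays lay above both LFD arrays for 11 members (27.5%, against 36.2% of all genes) and below them for 5 (12.5%, against 32.7%), and the arrays of the 2 diets overlapped for the other 24. Leaving out HFD replicate 1 or HFD replicate 2 left 0 members called by limma, with 8 and 7 of them at an unadjusted p under 0.05. Without either of these arrays, at most 10 of all genes were called higher and 9 lower, so calls in the other lists below rest on both as well. Without LFD replicate 1 the called members were Irf5 and Mx1, and without LFD replicate 2 only Irf5.

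**Figure D2:**
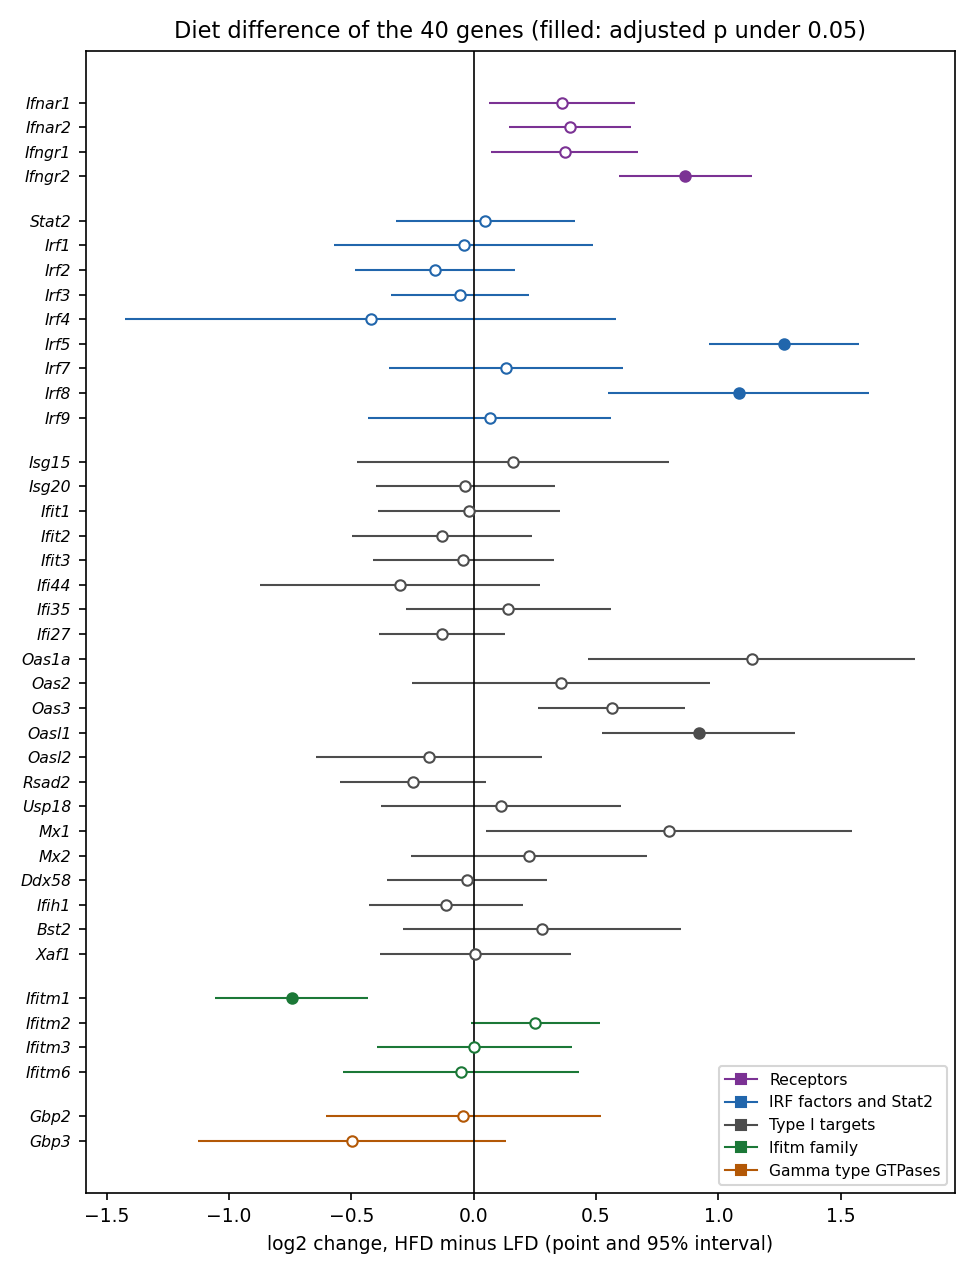
Log2 difference between HFD and LFD (x axis) for each of the 40 genes, grouped by role, as a point with its 95% interval from limma, filled where the adjusted p was under 0.05. Most type I targets lie near 0, and the filled points are Ifngr2, Irf5, Irf8 and Oasl1 to the right and Ifitm1 to the left.

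The receptor chains all had brighter signals on both HFD arrays than on either LFD array, as 36.2% of all genes did. Of the 4 chains 1, Ifngr2, was called higher, against 5.74% of all genes. Ifngr2, the signal-transducing chain of the interferon gamma receptor, had log2 signals of 2.09 and 2.20 on the HFD arrays, against 1.25 and 1.30 on the LFD arrays, with a probe at chr16:91563982-91564041 of build mm9. The difference was 0.87 (SE 0.10, 95% interval 0.59 to 1.14, adjusted p = 0.0239), or 1.82-fold. A second, dimmer probe for Ifngr2 gave -0.37 and -0.25 on the HFD arrays, against -1.15 and -1.02 on the LFD arrays, a difference of 0.78 (adjusted p = 0.0309). Both probes of this chain therefore separated the diets by more than the spread within either diet. With any 1 array left out, the Ifngr2 difference was 0.81 to 0.92, and its adjusted p of 0.0553 to 0.143 no longer passed the threshold.

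Ifngr1, the ligand-binding chain of the same receptor, had signals of 5.49 and 5.63 on the HFD arrays, against 5.12 and 5.25 on the LFD arrays, a difference of 0.37 (adjusted p = 0.103). Ifnar2, the high-affinity chain of the type I receptor, gave 2.98 and 2.93 in HFD, against 2.55 and 2.57 in LFD, a difference of 0.39 (adjusted p = 0.0680). Ifnar1, its partner, gave 0.48 and 0.66 in HFD, against 0.23 and 0.20 in LFD, a difference of 0.36 (adjusted p = 0.108). For these 3 chains both HFD arrays lay above both LFD arrays, as for 36.2% of all genes, but none of the differences passed the test. The median difference of the 4 chains was 0.38.

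Among the transcription factors, Irf5 and Irf8 were higher in HFD, 2 of 9 against 5.74% of all genes. The other 7 did not pass the test. Irf5, a factor that drives inflammatory cytokine genes in macrophages, had signals of 0.94 and 0.98 on the HFD arrays, against -0.21 and -0.41 on the LFD arrays. Its difference was 1.27 (SE 0.11, 95% interval 0.96 to 1.57, adjusted p = 0.0179), or 2.41-fold, which was the largest difference and the smallest adjusted p of the 40 genes. Its single probe lies at chr6:29486901-29486960 of build mm9. The arrays of each diet lay close together and far from those of the other diet. Without HFD replicate 1 or without HFD replicate 2 the call was lost, although the difference was at least 1.17 with any array left out (adjusted p of 0.0433 to 0.0999).

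Irf8, which directs the development of macrophages and dendritic cells, had signals of 2.78 and 3.11 on the HFD arrays, against 2.05 and 1.67 on the LFD arrays, with a probe at chr8:123280324-123280383 of mm9. The difference was 1.08 (SE 0.20, 95% interval 0.55 to 1.62, adjusted p = 0.0456), or 2.12-fold. A second probe gave 0.33 and 0.74 in HFD, against -0.50 and -0.70 in LFD, a difference of 1.13 (adjusted p = 0.0372). The 2 probes gave differences of like size, and the spread within each diet was wider than for Irf5. With any 1 array left out, the difference of the brighter probe was 0.89 to 1.27 and did not pass the test (adjusted p of 0.0749 to 0.185).

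The factors that act directly in interferon signalling did not share this pattern. Irf7, the amplifier of interferon alpha genes and itself a type I target, had signals of -1.16 and -0.75 in HFD, against -1.00 and -1.16 in LFD, a difference of 0.13 (95% interval -0.35 to 0.61, adjusted p = 0.622). Irf9 had signals of 0.67 and 0.75 in HFD, against 0.88 and 0.42 in LFD, a difference of 0.06 (adjusted p = 0.822). Stat2 had signals of 0.96 and 1.18 in HFD, against 1.12 and 0.93 in LFD, a difference of 0.05 (95% interval -0.32 to 0.41, adjusted p = 0.826). In all 3 the arrays of the diets overlapped, and the intervals of Irf7 and Stat2 lie within a difference of 0.61 in either direction.

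Irf1, a factor induced strongly by interferon gamma, gave 3.72 and 4.03 in HFD, against 4.12 and 3.72 in LFD, a difference of -0.04 (adjusted p = 0.897), and its second probe gave 0.04. Irf2, which competes with Irf1 for the same sites, gave -0.47 and -0.54 in HFD, against -0.24 and -0.46 in LFD, a difference of -0.16 (adjusted p = 0.396). The arrays of the 2 diets overlapped for Irf1 but not for Irf2. Irf3, which is activated by phosphorylation after virus sensing, had a difference of -0.06 (adjusted p = 0.719) at its brighter probe and of -0.47 (adjusted p = 0.0590) at a dimmer one. Irf4, a factor of lymphocytes and of alternatively activated macrophages, gave -2.17 and -2.46 in HFD, against -1.40 and -2.40 in LFD, a difference of -0.42 (95% interval -1.42 to 0.58, adjusted p = 0.457). Its wide interval comes with an LFD replicate 1 signal far above the other 3 arrays.

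**Figure D3:**
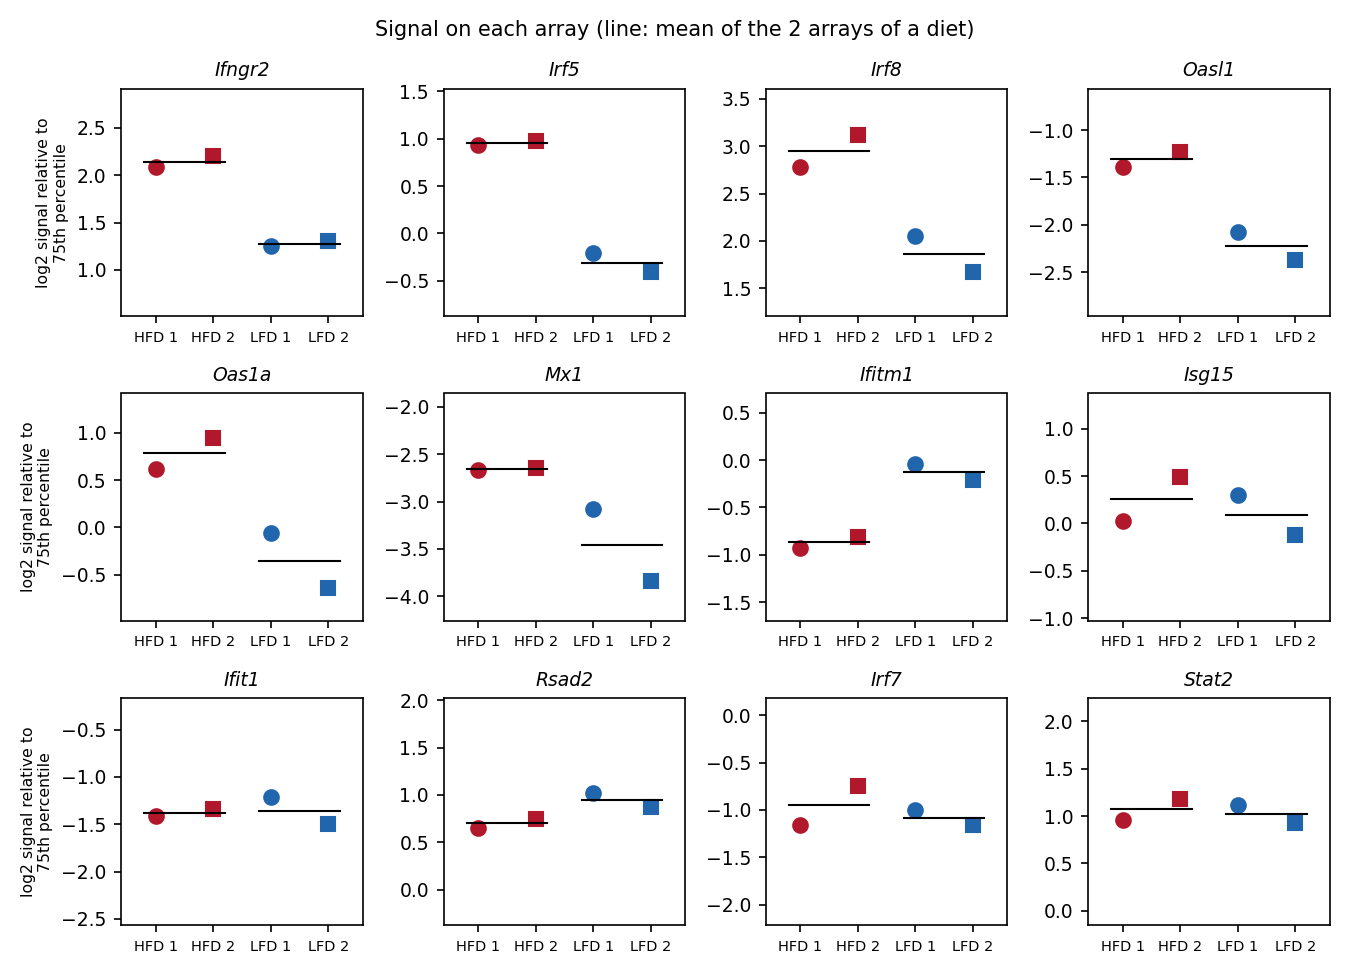
Log2 signal relative to the 75th percentile (y axis, with panels of equal height in log2 units, each centred on its gene) on each of the 4 arrays for 12 members, with HFD in red on the left, LFD in blue on the right and a line at the mean of each diet. Ifngr2, Irf5, Irf8 and Oasl1 sit higher on both HFD arrays, Ifitm1 sits lower, and the arrays of Isg15, Ifit1, Irf7 and Stat2 overlap.

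Of the 21 targets of type I interferon, 1 was higher in HFD, Oasl1, and 0 were lower, by limma, against 5.74% and 5.61% of all genes. At an unadjusted p under 0.05 there were 4 of 21, against 34.9% of all genes. Their median difference was 0.01, with a range of -0.30 to 1.14, and it lay between -0.07 and 0.15 under every setting tried. In 18 of them the difference was below 1.5-fold, and in 15 (71.4%) the arrays of the diets overlapped, against 31.1% of all genes.

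Isg15, a ubiquitin-like protein that is attached to other proteins, had signals of 0.02 and 0.49 in HFD, against 0.30 and -0.12 in LFD, a difference of 0.16 (95% interval -0.48 to 0.80, adjusted p = 0.651). Usp18, which removes Isg15 and dampens the type I receptor, gave -0.27 and 0.07 in HFD, against -0.06 and -0.37 in LFD, a difference of 0.11 (adjusted p = 0.686). Rsad2 (viperin), an antiviral enzyme, gave 0.65 and 0.75 in HFD, against 1.02 and 0.87 in LFD, a difference of -0.25 (95% interval -0.55 to 0.05, adjusted p = 0.195). Rsad2 had weaker signals on both HFD arrays than on either LFD array at this probe, without passing the test, and its other 2 probes gave -0.24 and -0.13.

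The Ifit proteins bind foreign RNA and block its translation. Ifit1 gave -1.42 and -1.34 in HFD, against -1.21 and -1.50 in LFD, a difference of -0.02 (95% interval -0.39 to 0.35, adjusted p = 0.931). Ifit3 gave 1.84 and 1.97 in HFD, against 2.08 and 1.82 in LFD, a difference of -0.04 (adjusted p = 0.842), at a probe that may also bind its near copy Ifit3b. Ifit2 had a difference of -0.13 (adjusted p = 0.524). The HFD and LFD arrays of all 3 genes overlapped.

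The oligoadenylate synthetases, which make a second messenger that activates an RNA-degrading enzyme, included the 1 type I target that passed the test. Oasl1, a family member without that catalytic activity that in mice represses translation of Irf7, had signals of -1.38 and -1.23 on the HFD arrays, against -2.08 and -2.37 on the LFD arrays, with a probe at chr5:115387556-115387615 of mm9. The difference was 0.92 (SE 0.15, 95% interval 0.53 to 1.31, adjusted p = 0.0374), or 1.89-fold. With any 1 array left out it was 0.77 to 1.07 and did not pass the test (adjusted p of 0.0582 to 0.177). Oas1a gave 0.62 and 0.94 in HFD, against -0.06 and -0.65 in LFD, a difference of 1.14 (SE 0.25, 95% interval 0.47 to 1.80, adjusted p = 0.0611). Its arrays did not overlap, and it passed the test with normexp background correction, with the stricter filter on dim probes, and with the trended, robust variance. The mouse genome holds several near copies of Oas1a, which its 1 probe may not tell apart.

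Oas3 was dim, with signals of -3.22 and -3.16 in HFD, against -3.66 and -3.84 in LFD, a difference of 0.56 (adjusted p = 0.0528), and its probe was well above background on 1 of the 2 HFD arrays. Oas2 gave 0.34 and 0.67 in HFD, against 0.40 and -0.10 in LFD, a difference of 0.36 (adjusted p = 0.317). Oasl2 gave 1.24 and 1.55 in HFD, against 1.72 and 1.43 in LFD, a difference of -0.18 (adjusted p = 0.480). The 5 synthetase genes therefore did not move as 1, and Oasl1 alone passed the test.

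Mx1 is an antiviral GTPase whose gene is defective in C57BL/6 mice. It gave -2.67 and -2.65 in HFD, against -3.08 and -3.84 in LFD, a difference of 0.80 (adjusted p = 0.133), at its brighter probe. A dimmer Mx1 probe, well above background on 1 of the 2 HFD arrays, gave -3.34 and -3.14 in HFD, against -4.07 and -4.02 in LFD, also a difference of 0.80 (adjusted p = 0.0322). Mx1 was the only member whose probes fell on different sides of the threshold, and without LFD replicate 1 its brighter probe passed too (adjusted p = 0.0468). Mx2 gave -1.49 and -1.22 in HFD, against -1.41 and -1.76 in LFD, a difference of 0.23 (adjusted p = 0.410).

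At their brightest probes the remaining type I targets differed by 0.30 or less in either direction, and none passed the test. The RNA sensors Ddx58 (RIG-I) and Ifih1 (MDA5) had differences of -0.03 (adjusted p = 0.882) and -0.11 (adjusted p = 0.527). Bst2 (tetherin), which holds virus particles at the cell surface, had a difference of 0.28 (adjusted p = 0.388). The exonuclease Isg20 had a difference of -0.03, Ifi35 of 0.14, Xaf1 of 0.01, Ifi27 of -0.13 and Ifi44 of -0.30. Ifi44 had the largest of these and was brightest on LFD replicate 1, at -1.41, against -1.90 on LFD replicate 2 and -2.08 and -1.83 on the HFD arrays. A dimmer Ifi44 probe, well above background on 0 of 2 HFD arrays, gave a difference of -0.67 (adjusted p = 0.153).

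The Ifitm proteins sit in membranes and restrict the entry of viruses, and they did not move together. Ifitm1 had signals of -0.93 and -0.81 on the HFD arrays, against -0.04 and -0.21 on the LFD arrays, with a probe at chr7:148155455-148155514 of mm9. The difference was -0.74 (SE 0.11, 95% interval -1.06 to -0.43, adjusted p = 0.0362), so Ifitm1 was 1.67-fold lower in HFD. With any 1 array left out the difference was -0.83 to -0.66, and the adjusted p of 0.0572 to 0.157 did not pass the threshold. Ifitm2 gave 2.52 and 2.62 in HFD, against 2.34 and 2.30 in LFD, a difference of 0.25 (adjusted p = 0.158). Ifitm3 had a difference of 0.00 (adjusted p = 0.990) and Ifitm6 of -0.05 (adjusted p = 0.860), with overlapping arrays in both. Markers of mesothelium, the cell layer that lines the body cavities and covers their organs, were lower in HFD beside Ifitm1. This held for 6 of 6 markers, against 5.61% of all genes called lower, with a median difference of -1.74. Their summed signal was 9.78 and 7.83 times the 75th percentile on the HFD arrays, against 22.9 and 24.4 on the LFD arrays, and their part in the Ifitm1 difference was not tested.

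Gbp2 and Gbp3, guanylate-binding proteins that interferon gamma induces strongly, did not pass the test. Gbp2 gave 2.46 and 2.82 in HFD, against 2.88 and 2.48 in LFD, a difference of -0.04 (95% interval -0.60 to 0.52, adjusted p = 0.900). Gbp3 gave 1.87 and 2.20 in HFD, against 2.79 and 2.27 in LFD, a difference of -0.50 (95% interval -1.13 to 0.13, adjusted p = 0.211). Together with Irf1 and Irf8, the members classed as targets of interferon gamma had a median difference of -0.04, which lay between -0.24 and 0.16 under every setting tried. Irf8 was the member of these 4 that was higher in HFD.

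Other genes of the pathway were read from lists of its further targets, ligands and signalling proteins. Of 35 measured further type I targets (of 38 listed), 1 was higher and 0 lower by limma, with 10 (28.6%) at an unadjusted p under 0.05, against 34.9% of all genes, and their median difference was 0.16. The gene called was Tdrd7, with 4.05 and 4.20 in HFD, against 3.39 and 3.58 in LFD, a difference of 0.64 (adjusted p = 0.0498). Of 17 measured further targets of interferon gamma (of 21 listed), 1 was higher and 0 lower by limma, with 5 (29.4%) at an unadjusted p under 0.05, and their median difference was -0.38. The gene called was Ifi30, a lysosomal reductase that unfolds antigens for presentation, with 2.03 and 2.03 in HFD, against 0.82 and 0.44 in LFD, a difference of 1.40 (adjusted p = 0.0232), or 2.63-fold. In 13 of these 17 genes (76.5%) the difference was negative, against 47.8% of all genes, and in 8 (47.1%) both HFD arrays lay below both LFD arrays, against 32.7%. The calls of Tdrd7 and of Ifi30 were lost without HFD replicate 1 or HFD replicate 2, and that of Tdrd7 also without either LFD array.

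Of the further gamma targets, 3 GTPases of the immunity-related family are named here after their values were seen. Tgtp1 gave 1.35 and 1.51 in HFD, against 2.88 and 2.27 in LFD, a difference of -1.15 (adjusted p = 0.0563), at a probe that may not tell it from a near copy. A second, dim probe for Tgtp1 gave 0.11 (adjusted p = 0.672). Igtp had a difference of -0.74 (adjusted p = 0.176) and Iigp1 of -0.92 (adjusted p = 0.189). Each of the 3 was brightest on LFD replicate 1 at the probe used. In the same family Irgm1 had a difference of -0.34, Irgm2 of -0.42 and Ifi47 of -0.25, while the guanylate-binding proteins Gbp8 and Gbp4 had -0.85 and -0.75. Going the other way, 4 of the 17 further gamma targets had a positive difference, Ifi30 among them. The others were Cxcl10 with 1.33 (adjusted p = 0.200), Ciita with 0.96 (adjusted p = 0.109) and Gbp6 with 0.08 (adjusted p = 0.897).

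Interferon transcripts themselves were dim. Of 18 listed ligands 6 could be tested, and Ifnb1, which encodes interferon beta, was not well above background on any array. Ifng, which encodes interferon gamma, gave -2.71 and -1.98 in HFD, against -2.25 and -2.72 in LFD, a difference of 0.14 (adjusted p = 0.776). Ifna9 gave -2.37 and -2.32 in HFD, against -3.03 and -2.84 in LFD, a difference of 0.59 (adjusted p = 0.0499). The interferon alpha genes are near copies of each other that a probe may not tell apart, and the Ifna9 call was lost with any 1 array left out.

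Of 21 sensing and signalling genes, 4 were higher in HFD and 0 were lower by limma, against 5.74% and 5.61% of all genes, and their median difference was 0.21. At an unadjusted p under 0.05 there were 7 (33.3%), against 34.9% of all genes. Il10rb, a receptor chain shared by interleukin 10 and interferon lambda, had 3.81 and 3.81 in HFD, against 3.16 and 3.23 in LFD, a difference of 0.62 (adjusted p = 0.0344). Traf3, an adaptor of virus sensing, had a difference of 0.58 (adjusted p = 0.0374), and Tlr7, an endosomal RNA sensor, of 0.76 (adjusted p = 0.0384). Ikbke, a kinase that activates Irf3, had a difference of 0.60 (adjusted p = 0.0499). These 4 calls were lost with any 1 array left out.

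**Figure D4:**
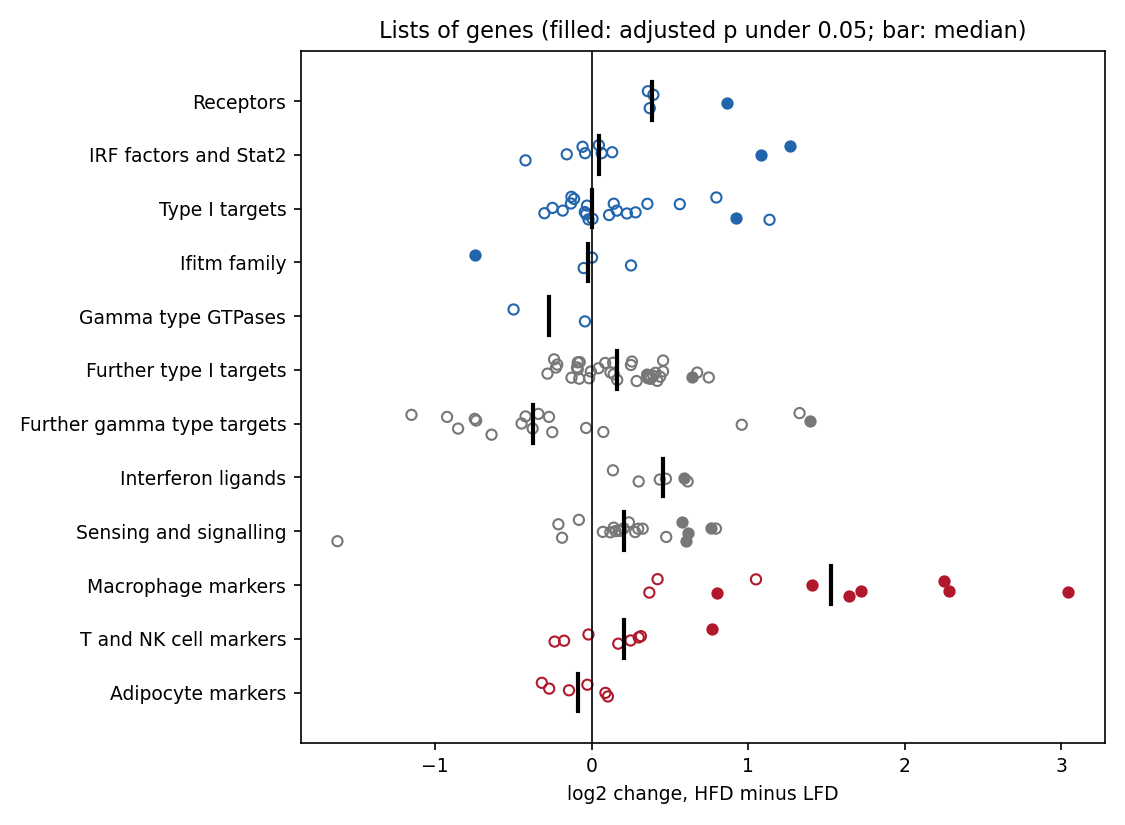
Log2 difference between HFD and LFD (x axis) of each measured gene in the 5 groups of members (blue), the 4 lists of other pathway genes (grey) and 3 lists of cell type markers (red), filled where the adjusted p was under 0.05, with a bar at each median. Type I targets centre on 0.01 and further gamma targets on -0.38, while macrophage markers centre on 1.53.

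Markers of macrophages, which express Irf5, Irf8 and Ifi30, had positive differences between diets, as those genes did. Of 10 macrophage markers 7 were higher in HFD, against 5.74% of all genes, with a median difference of 1.53. The summed macrophage signal was 303 and 313 times the 75th percentile on the HFD arrays, against 191 and 171 on the LFD arrays. Cd68, a lysosomal protein of macrophages, had a difference of 2.28 (adjusted p = 0.0137) and the surface receptor Adgre1 (F4/80) of 1.65 (adjusted p = 0.0137), both named after their values were seen. Both calls were lost without HFD replicate 1 or HFD replicate 2, where the differences were at least 2.21 and 1.58. The differences of the 10 markers ranged from 0.37 to 3.04, and those of Irf5 (1.27) and Irf8 (1.08) lay within that range. Within each diet, Irf5 and Irf8 were brighter on HFD replicate 2 and on LFD replicate 1, as were 3 of 10 macrophage markers. The part of macrophages in the Irf5 and Irf8 differences was not tested. Markers of adipocytes did not pass the test in 6 of 6 genes by limma, where 11.4% of all genes passed. Of these markers 1 had an unadjusted p under 0.05, and their summed signal was 942 and 1010 in HFD, against 938 and 1023 in LFD. Of 6 markers of plasmacytoid dendritic cells (a cell type known for making type I interferon), 1 was higher in HFD and 2 were lower. Of all genes, 5.74% were higher and 5.61% lower. Cox6a2 was the higher one, with a difference of 2.24 (adjusted p = 0.0137), and Siglech and Ly6d were lower. The defining Siglech was dim, and was well above background on 0 of 2 HFD arrays and on 2 of 2 LFD arrays. Its difference is therefore given only as at least 1.42-fold. The summed signal of the 6 markers was 6.66 and 6.96 in HFD, against 10.3 and 9.01 in LFD. That lower sum rests on Ly6d alone, which gave -1.66 and -0.38 in HFD, against 2.19 and 1.62 in LFD. It is therefore no measure of the list as a whole.

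The members also differed between the arrays of a diet, and most did so in the same way, which was noticed in these data and is given as a description with no test. In 32 of 40 members (80%) the signal was higher on HFD replicate 2 than on HFD replicate 1 and also higher on LFD replicate 1 than on LFD replicate 2, against 20.9% of all genes tested. Among the type I targets this held for 18 of 21 (85.7%), among the IRFs and Stat2 for 7 of 9 and in the Ifitm family for 4 of 4. For the type I targets the median of HFD replicate 1 minus HFD replicate 2 was -0.21 and that of LFD replicate 1 minus LFD replicate 2 was 0.29, against -0.02 and -0.05 over all genes. These within-diet differences are larger than the median difference between diets of 0.01. With normexp background correction 19 of the 21 type I targets showed the pattern, against 21.9% of all genes. Quantile normalisation and the deposited value table gave 18 each, against 23.2% and 20.9% of all genes.

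The same pattern was present in 15 of 17 further gamma targets (88.2%), which varied more widely. Igtp gave 2.24 and 2.79 on HFD replicates 1 and 2, against 3.57 and 2.93 on LFD replicates 1 and 2. Of the markers of T and NK cells, 8 of 8 measured genes had it (Cd4 and Ncr1, of 10 listed, were too dim to test), and of B cell markers 4 of 5. The summed T and NK cell signal was 2.21 and 3.50 times the 75th percentile on HFD replicates 1 and 2, against 4.03 and 1.76 on LFD replicates 1 and 2. The summed B cell signal was 1.46 and 2.13 in HFD, against 6.26 and 1.08 in LFD. The pattern was seen in 4 of 6 plasmacytoid dendritic cell markers, 3 of 5 endothelial, 2 of 4 neutrophil, 3 of 10 macrophage, 0 of 6 mesothelial and 0 of 6 adipocyte markers. Among the further type I targets 21 of 35 (60%) had it, and among the receptor chains 1 of 4, the sensing and signalling genes 7 of 21 and the interferon ligands 1 of 6. The part of lymphocyte RNA in the signals of the interferon targets was not tested.

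**Figure D5:**
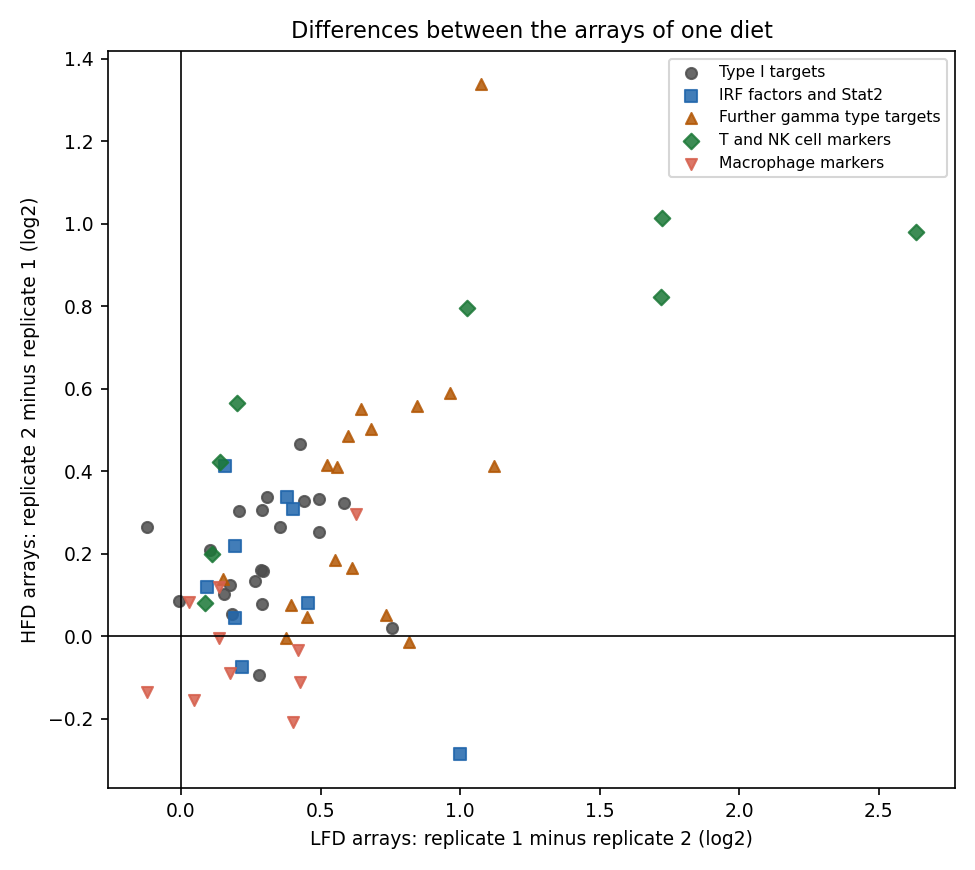
Signal on HFD replicate 2 minus HFD replicate 1 (y axis, log2) against signal on LFD replicate 1 minus LFD replicate 2 (x axis, log2) for type I targets, IRFs with Stat2, further gamma targets, T and NK cell markers and macrophage markers, 1 point per gene. Of the type I targets 18 of 21 and of the T and NK cell markers 8 of 8 lie to the upper right of both zero lines, where 20.9% of all genes lie.

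Presence of an ISRE core was not matched by a difference between diets. The 9 type I targets with a core had a median difference of -0.02, with a range of -0.25 to 1.14, and 0 of them were called by limma. The 7 without a core had a median of -0.03, with a range of -0.30 to 0.92, and 1 of them, Oasl1, was called. Of those with a core 8 of 9 differed by less than 1.5-fold, the exception being Oas1a, and of those without a core 6 of 7 did.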

How the data were processed

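The data are RNA levels of white adipose tissue from 4 arrays of 1 colour, with 2 arrays for each diet. Spot brightness was deposited by the authors as linear intensity values from Feature Extraction (11.5.1.1 per the submitters' processing notes, 11.0.1.1 per the file headers), with background subtracted and no normalisation between arrays. The values of the authors' deposited table are a ratio, each spot's processed signal over its array's 75th percentile, as division of the scanner values by it showed. Its column medians were 0.140 and 0.142 for the HFD arrays and 0.129 and 0.137 for the LFD arrays. It is linear and uncentred, and its direction is that of signal.

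Processed signals were put on the log2 scale relative to the 75th percentile of their array, with spots of a probe averaged, outlier spots (60 to 115 per array) left out and no spot saturated. A probe was tested where both arrays of HFD, or both of LFD, had it well above background (26058 of 41174). The diets were compared by two-sided tests with lmFit and eBayes of limma 3.58.1 in R 4.3.3 (package data.table, version 1.17.8). P-values were adjusted by Benjamini-Hochberg over all tested probes, and those under 0.05 were called. Residual degrees of freedom were 2 and prior ones 2.24. A gene is its tested probe of highest mean signal. Of the members 12 had more than 1 tested probe, with opposite signs in 2. Names were updated through RefSeq accessions (27668 probes matched and 13506 kept the file's name), and probe coordinates are the files', in mm9, with no annotation of that build used here. The procedure was tested on simulated data.

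Values by array are given for called members and for up to 4 members of smallest p per role group, with others to complete families; in other lists the called genes are named. The members, lists and tests were chosen with earlier results of these data known. The alternatives tried were quantile normalisation, normexp (offset 50), the value table, other filters on dim probes, the mean of a gene's probes, trended robust variance, the replicate number as a block and each array left out. The number of arrays limits the precision.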

Additional observations from a re-analysis of the deposited data

How the results depend on the processing

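By limma, 4 members were higher and 1 lower in HFD. The counts were 5 and 1 with normexp (Oas1a added), 4 and 1 with quantile normalisation, the deposited value table or the mean of a gene's probes, and 6 and 1 with probes well above background on all 4 arrays (Ifnar2 and Oas1a added). With trended robust variance, 7 were higher and 1 lower (Ifnar2, Ifngr1 and Oas1a added). Without a filter on dim probes, 0 were higher and 0 lower (8 members at an unadjusted p under 0.05), and 0 of 27617 genes were called, with 5609 at an unadjusted p under 0.05. With 1 array left out, 0 to 2 members were higher and 0 lower in any of the 4 fits, with 7 to 13 at an unadjusted p under 0.05. Each such fit leaves a lone array in 1 diet, assumed to vary like the others. With the filter remade on the 3 arrays left, chosen after seeing the data, 0 members were higher and 0 lower in all 4 fits (6 to 13 at an unadjusted p under 0.05). Of all genes, 9 to 471 were higher and 9 to 338 lower with 1 array left out, against 1019 and 995 with all 4 arrays. No called member changed sign under any setting. Of members not called, 0 to 3 changed sign under other processing and 7 to 8 with 1 array left out. The median of the type I targets ranged from -0.07 to 0.15, and that of the 4 gamma targets from -0.24 to 0.16. Their spread between replicates (0.15 and 0.26) is no yardstick here, since leaving out an array moves a median by part of that same spread. Without a filter on dim probes the median of all genes was 0.20, against 0.02 as reported.

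With the replicate number as a block, 0 members were higher and 0 lower, with 11 at an unadjusted p under 0.05, and 220 and 208 of all genes were called. Blocked adjusted p-values were 0.0504 for Irf5, 0.0573 for Ifngr2, 0.0754 for Ifitm1, 0.0758 for Oasl1 and 0.0879 for Irf8. Deviations of same-numbered arrays correlated with r = -0.00456 across 26058 probes, with a rank correlation of 0.0964. The rank correlation was -0.308 for the 40 members and -0.383 for the 21 type I targets. Whether same-numbered arrays shared any handling was not tested. A block for slide was left out, as there was 1 slide. The cause of these shifts was not tested. Signal over background limits Oas3, Mx1 and the interferon ligands, whose probes were dim.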
